A study of Mus musculus with 4 samples.

Results

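The motile cilia genes described here code for the parts of beating cilia, which ependymal cells carry on the surface that faces the central canal of the spinal cord. The members were chosen by gene symbol: axonemal dynein heavy chains, dynein intermediate chains, dynein assembly factors and genes named as cilia and flagella associated proteins (CFAP), together with Foxj1, Mycbpap, Rsph1, Rsph4a, Spag6l, Hydin, Spag17, Ccdc39 and Ccdc40. Of 14715 gene symbols with a value, 45 were members. A further 18 protein-coding symbols that match the same names in RefSeq, Hydin and Spag17 among them, had no listed value. Members were listed for 39 symbols at 7 days post injury (dpi) and for 41 at 21 dpi, with 35 at both times, 4 at 7 dpi only and 6 at 21 dpi only.

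RNA was sequenced from a spinal cord segment of some 4 mm around the lesion in male targeted replacement mice, in which a human ApoE isoform takes the place of the mouse gene. The 4 groups were ApoE3 mice at 7 dpi, ApoE4 mice at 7 dpi, ApoE3 mice at 21 dpi and ApoE4 mice at 21 dpi, all 3 to 5 months old and all given a contusion of 50 kdyne. The methods give 3 mice per group, but the deposited table holds 1 value per gene and group, so the spread between mice could not be computed from these values and no test was run on them. The authors' own test results were not used. Values were FPKM, that is fragments scaled to the length of the transcript and to the number of fragments, and ratios were taken as the log2 of (FPKM + 1) over (FPKM + 1), a scale that understates the change of low genes.

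The reading of the genotypes carries a limit. The table numbers ApoE4 as its first sample but names each comparison as ApoE3 versus ApoE4, and the values were read in the order of that name. Under the other reading every direction between the genotypes below would be swapped, and the time comparisons of ApoE3 and ApoE4 would exchange names.

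Motile cilia beat by the sliding of microtubule doublets, driven by rows of dynein motors known as outer and inner arms. Radial spokes and a central pair of microtubules coordinate the motors, and assembly factors fold and load them in the cytoplasm. In the spinal cord such cilia are carried by the ependymal cells that line the central canal, and Foxj1 is the transcription factor that switches on much of this gene set.

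The label was checked against 12 ependymal markers, of which 10 were listed, and Dbi and Nnat were not. Foxj1 had an FPKM of 36.4 in ApoE3 and 36.8 in ApoE4 at 7 dpi, and of 45.5 and 56.9 at 21 dpi. Ccdc153, a marker of ciliated ependymal cells, had an FPKM of 8.58 and 10.04 at 7 dpi and of 42.8 and 23.6 at 21 dpi. Tmem212, another such marker, had 6.23 and 6.71 at 7 dpi and 14.2 and 10.4 at 21 dpi. The most abundant markers were Prom1, a membrane protein also found in other cells, at 208 and 170 at 7 dpi and 183 and 259 at 21 dpi, and Rarres2, listed only at 7 dpi, at 91.8 and 87.8. Of 9 markers of the choroid plexus, the other multiciliated epithelium of the central nervous system, 6 were not listed, and Ttr was listed only at 21 dpi, at 0.17 in ApoE3 and 5.40 in ApoE4. Ependymal markers were thus found in each group, but the segment was bulk tissue, in which fewer cells of a type and less RNA per cell cannot be told apart.

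Members spanned a wide range of abundance. The median FPKM of the listed members was 10.8 in ApoE3 and 10.6 in ApoE4 at 7 dpi, and 15.0 and 14.6 at 21 dpi, against medians over all listed genes of 33.0 and 33.0 at 7 dpi and 26.9 and 36.8 at 21 dpi. Cfap36 was the most abundant member in each group, with an FPKM of 81.8 in ApoE3 and 76.0 in ApoE4 at 7 dpi and of 115 and 182 at 21 dpi. Dnah7b, an inner arm dynein heavy chain, had the next highest mean, at 57.6 and 48.9 at 7 dpi and at 114 and 136 at 21 dpi. The lowest value was that of Cfap157 in ApoE4 at 7 dpi, 0.25, and the lowest at 21 dpi was that of Cfap73 in ApoE4, 0.33. Cfap20, Cfap36, Cfap97 and Cfap410, which the names also take in, are known from many cell types and not from ciliated cells alone.

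**Figure D1:**
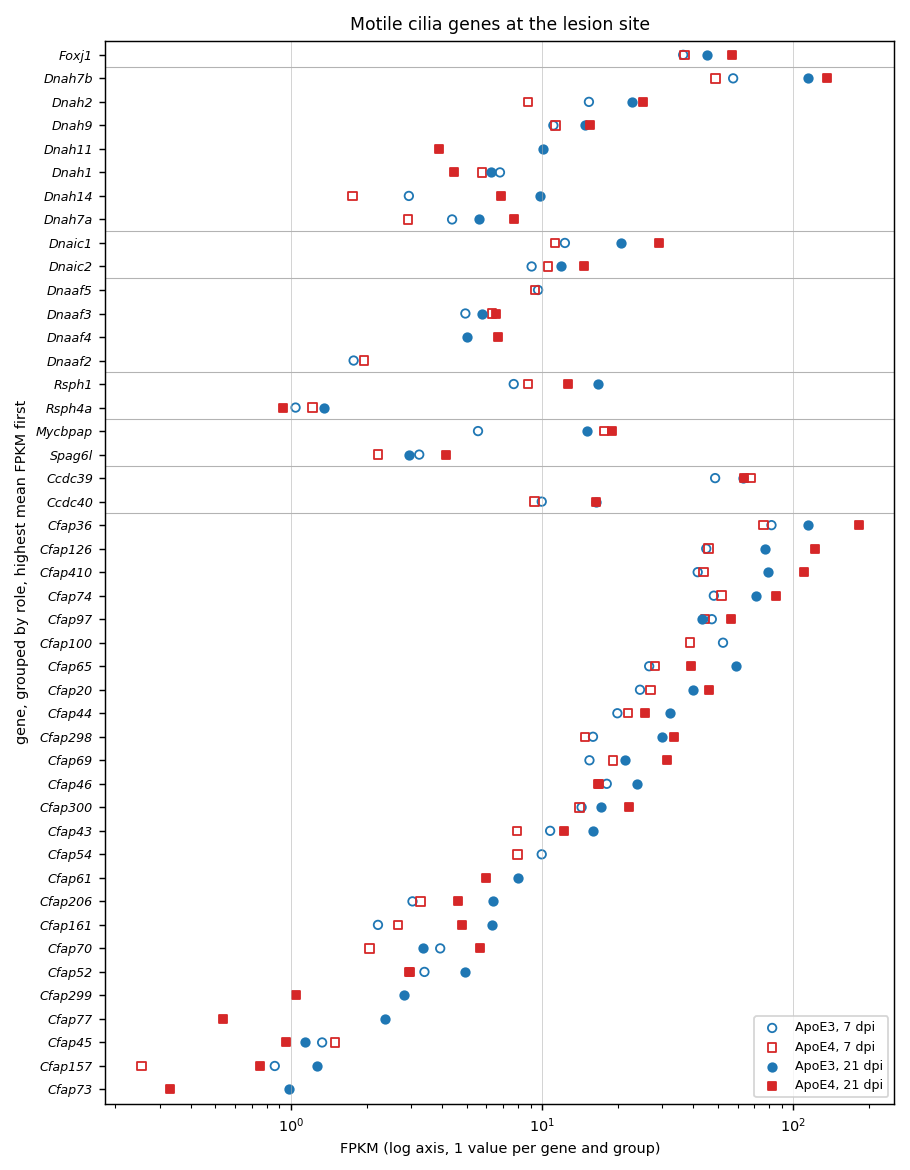
FPKM of the 45 listed motile cilia genes (horizontal axis, logarithmic) by gene (vertical axis, grouped by role), with open symbols for 7 dpi and filled symbols for 21 dpi, circles for ApoE3 and squares for ApoE4. Each symbol is 1 deposited value, and most filled symbols lie to the right of the open ones, as for Dnah7b, at 57.6 and 48.9 at 7 dpi and 114 and 136 at 21 dpi.

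Genes of motile cilia are known to be bound by RFX factors at X-box motifs near their start, so the promoters of members were searched for such letters. The promoter windows, each of 300 bases from 250 before to 50 after a RefSeq gene start in GRCm38.p6, were at hand for 36 members in 39 windows and for 27025 genes in 32851 windows. The letters GTTGCC, the core of an RFX site, stood on either strand in 16 of the 39 windows of members (41.0%) and in 12.5% of all windows. An inverted pair of these cores, written GTTNCC and GGNAAC with 0 to 3 bases between, stood in 1 window of members (2.56%) and in 0.804% of all windows. Another pair, GTTGC and GCAAC with 0 to 4 bases between, was added after the promoters had been seen and overlaps the former, and it stood in 5 windows of members (12.8%) and in 0.447% of all windows. The forkhead core TGTTTAC stood in 2 windows of members (5.13%) and in 3.65% of all windows. A match describes letters and not a bound site.

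The 5 members with the added pair are shown because they join dynein heavy chains, an intermediate chain and CFAP genes under the same letters. Each stretch runs 5′ to 3′ on the strand of the gene, ends before the gene start and carries up to 30 bases on each side, and the capitals mark the pair. The stretch of Dnah7b lay at chr1:46066799-46066852 on the plus strand, with the pair beginning 24 bases before the start, and that of Dnah7a at chr1:53706799-53706871 on the minus strand, with the pair 57 bases before it. Those of Dnaic2, at chr11:114727356-114727418 on the plus strand, and Cfap44, at chr16:44394742-44394798 on the plus strand, began 33 and 27 bases before the start. Cfap298, on the minus strand, held pairs at chr16:90934994-90935067 and at chr16:90934874-90934948, of which the latter matched only the pair GTTNCC and GGNAAC.
Dnah7b: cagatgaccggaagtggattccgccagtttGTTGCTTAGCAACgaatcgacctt
Dnah7a: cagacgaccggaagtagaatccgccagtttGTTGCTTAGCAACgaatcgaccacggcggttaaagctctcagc
Dnaic2: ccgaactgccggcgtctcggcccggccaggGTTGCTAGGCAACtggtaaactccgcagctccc
Cfap44: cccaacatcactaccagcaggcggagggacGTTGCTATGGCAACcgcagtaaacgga
Cfap298, farther from the start: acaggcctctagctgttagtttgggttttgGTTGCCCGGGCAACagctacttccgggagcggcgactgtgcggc
Cfap298, nearer to the start: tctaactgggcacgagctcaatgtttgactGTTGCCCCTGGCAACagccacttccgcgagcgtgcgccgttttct
Dnah7a and Dnah7b carried the same letters in capitals, and reads of these close copies cannot be told apart with certainty, so the values of both, and those of Spag6l, which has a close copy too, are uncertain.

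The first comparison asked how the genotypes differed at 7 dpi. Dynein heavy chains were mostly higher in ApoE3, with 5 of 6 above 0 and a median log2 ratio of 0.34, and Mycbpap, named for its binding to a partner of the c-Myc protein, was lower in ApoE3 by the widest margin of any member. The members as a set did not lean to a side: their median log2 ratio was 0.03, with 20 of 39 above 0 and 19 below, beside a median of 0.00 over all 14122 listed genes, of which 50.5% were above 0. A ratio of at least 1.3-fold was reached by 8 members higher in ApoE3, against 3.78% of all listed genes, and by 2 members lower in ApoE3, against 4.76% of all. Of the 8, 6 were among the 19 members with a mean FPKM below 10, a range in which 7.40% of all genes were higher past it.

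Among the dynein heavy chains, which are the motors themselves, Dnah2 of the inner arm had an FPKM of 15.4 in ApoE3 and 8.80 in ApoE4 at 7 dpi, a log2 ratio of 0.74. Dnah14 had 2.95 and 1.76, a log2 ratio of 0.52, and Dnah7a had 4.38 and 2.92, a log2 ratio of 0.46. Dnah7b and Dnah1, both of the inner arm, had smaller log2 ratios of 0.23 and 0.21. Dnah9, a motor of the outer arm, had 11.1 and 11.3 and a log2 ratio of −0.03. The motors with ratios past 1.3-fold were thus Dnah2, Dnah14 and Dnah7a, and Dnah11 was not listed at this time.

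The parts that hold or load the motors had ratios on both sides of 0. The outer arm intermediate chains Dnaic1 and Dnaic2 had log2 ratios of 0.12 and −0.20, and the assembly factors Dnaaf2, Dnaaf3 and Dnaaf5 had −0.09, −0.30 and 0.04. The radial spoke heads Rsph1 and Rsph4a had −0.17 and −0.12. Ccdc39 and Ccdc40 form a ruler that sets the spacing of arms and spokes along the doublet. Ccdc39 had an FPKM of 48.8 in ApoE3 and 67.6 in ApoE4, a log2 ratio of −0.46, while Ccdc40 had 9.96 and 9.32, a log2 ratio of 0.09. Exons of Ccdc39 share 34.2% of their bases with Ttc14 on the opposite strand, which had an FPKM of 109 and 117, and the libraries did not mark strand, so the value of Ccdc39 is uncertain.

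Mycbpap had an FPKM of 5.56 in ApoE3 and 17.6 in ApoE4 at 7 dpi, a log2 ratio of −1.51. At 21 dpi it had 15.0 and 18.9. The value of ApoE3 at 7 dpi thus stood apart from the other groups, and the same value enters the comparison of times in ApoE3 below. Spag6l, of the central pair, went the other way at 7 dpi, with 3.24 and 2.22 and a log2 ratio of 0.40. Foxj1 was level, with a log2 ratio of −0.01.

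The CFAP genes had a median log2 ratio of 0.03 at 7 dpi, with 11 of 21 above 0. Those past 1.3-fold were all higher in ApoE3: Cfap70 at 0.69, Cfap157 at 0.57, Cfap100 at 0.43 and Cfap43 at 0.40. Cfap70, an outer arm protein, had an FPKM of 3.93 and 2.06, and Cfap157 only 0.86 and 0.25. No gene was listed at 7 dpi with a larger value below 0.82 FPKM, so at its value in ApoE4 Cfap157 could be listed only by being higher in ApoE3, and its direction is set by the listing. Without it 7 of the 8 higher members are left, 5 of them among 18 with a mean FPKM below 10, and a median of 0.01 over 38 members. Of all genes left under the same limit, 3.44% were higher past 1.3-fold, and 6.09% of those with a mean FPKM below 10. Of the abundant CFAP genes, Cfap36, Cfap97 and Cfap298 had log2 ratios of 0.10, 0.09 and 0.10, and Cfap126, Cfap410, Cfap74, Cfap65, Cfap20 and Cfap44 had ratios from −0.13 to −0.03. Cfap69, at −0.29, stood among the 5 lowest members with Mycbpap, Ccdc39, Dnaaf3 and Dnaic2. The neighbours of the threshold were Cfap43, at 0.40, and Cfap54, at 0.29, on the upper side, and Ccdc39, at −0.46, and Dnaaf3, at −0.30, on the lower.

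Values of other cell types moved with the genotype at 7 dpi as well. The log2 ratio was above 0 for all 12 neuron markers, at a median of 0.26 and a summed FPKM of 6014 in ApoE3 and 4730 in ApoE4, led by Snap25 at 3366 and 2545 and Rbfox3 at 838 and 697. The 7 listed markers of microglia and macrophages had a median of −0.37 and a summed FPKM of 8293 and 10882, led by Lyz2 at 4522 and 6076 and Cd68 at 1309 and 1696. All 9 listed fibroblast and pericyte markers were lower in ApoE3, with a median of −0.29 and a summed FPKM of 685 and 818, led by Col1a1 at 212 and 270 and Col1a2 at 134 and 173. Rgs5, a pericyte gene, had 109 and 109. The part of these cell types in the ratios of the cilia genes was not tested.

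The second comparison asked the same at 21 dpi, where the table as a whole was shifted. Dnah11 and several CFAP genes of low abundance were higher in ApoE3, Foxj1 and the most abundant members were lower, and the members together stood above a table in which most genes were lower in ApoE3. The median log2 ratio over listed genes with a mean FPKM of 1 or more was −0.42, and of all 11469 listed genes only 6.16% were above 0. The members had a median of −0.07, which was 0.36 above that of all genes, with 18 of 41 above 0 and 35 of 41 above the −0.42 of the whole table. Past 1.3-fold, 10 members were higher in ApoE3, against 2.01% of all listed genes, and 8 were lower, against 58.9% of all. For 4 of the members above 0, Cfap73, Cfap77, Cfap157 and Rsph4a, the direction is set by the listing, as described below. Without them 14 of 37 were above 0, with a median of −0.16, 31 of 37 were above the median of the table, and 8 were higher and 8 lower past 1.3-fold, against 1.56% and 58.7% of all genes left under the same limit.

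Directions at 21 dpi turn with the scaling. Of all genes past 1.3-fold, 3.31% were higher in ApoE3 as deposited, 48.1% once the median of all genes was subtracted and 41.5% once both groups were set to the same total FPKM. Of the 41 members, those past 1.3-fold went from 10 higher and 8 lower to 20 and 0 with the median subtracted. With the same total they went to 19 higher and 0 lower. Of all 11469 listed genes, 856 were higher and 924 lower past it with the median subtracted, and 752 and 1058 with the same total. Each ratio below is therefore given as deposited and, where named so, relative to the median of all genes.

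Dnah11, an outer arm motor, had an FPKM of 10.1 in ApoE3 and 3.89 in ApoE4 at 21 dpi, a log2 ratio of 1.18, or 1.61 relative to all genes, the highest of the members. Dnah14 had 9.82 and 6.89, a log2 ratio of 0.46, and Dnah1 had 6.24 and 4.45, a ratio of 0.41. All 7 listed heavy chains lay above the median of all genes, but 4 of them lay below 0 as deposited. Dnah7b, the most abundant motor, had 114 and 136, a log2 ratio of −0.25, or 0.17 relative to all genes. Dnah2 and Dnah9 had log2 ratios of −0.14 and −0.07, and Dnah7a, at 5.62 and 7.70, had −0.40, or 0.03 relative to all genes. Exons of Dnah11 share 4.56% of their bases with Cdca7l on the opposite strand, which was listed only at 7 dpi, at 10.3 and 13.4.

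The intermediate chain Dnaic1 had an FPKM of 20.5 in ApoE3 and 29.2 in ApoE4 at 21 dpi, a log2 ratio of −0.49, and Dnaic2 had 11.9 and 14.6, a ratio of −0.28. Relative to the median of all genes these were −0.07 and 0.15. The assembly factors Dnaaf3 and Dnaaf4 had log2 ratios of −0.16 and −0.35, both above that median. Of the radial spoke heads, Rsph1 had 16.7 and 12.7, a log2 ratio of 0.37, and Rsph4a had 1.35 and 0.93, a ratio of 0.29 whose direction is set by the listing. The ruler genes were level as deposited, Ccdc39 at 62.9 and 63.5 and Ccdc40 at 16.4 and 16.4, with ratios of −0.01 and 0.00, and so 0.41 and 0.42 above the median of all genes. Mycbpap and Spag6l had ratios of −0.31 and −0.38, which are 0.11 and 0.05 relative to all genes, and Foxj1 had −0.32, which is 0.10.

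Among the CFAP genes at 21 dpi, 13 of 23 were above 0, with a median log2 ratio of 0.32. For Cfap73, Cfap77 and Cfap157 the listing sets the direction, and all of them lay above that median. Without them as many CFAP genes were above 0 as below. The middle of their ranking then lay between Cfap298, at −0.16, and Cfap45, at 0.13. Cfap65, which is known from sperm tails as well, had an FPKM of 59.3 in ApoE3 and 39.1 in ApoE4, a log2 ratio of 0.59, the only one past 1.3-fold in this direction among the 10 most abundant CFAP genes, of which Cfap100 was not listed at this time. Cfap77 had 2.38 and 0.54, a ratio of 1.13, Cfap299 had 2.83 and 1.05, a ratio of 0.90, and Cfap52, a protein inside the doublet, had 4.92 and 2.94, a ratio of 0.59. At the other end stood Cfap36, at 115 and 182, and Cfap126, a protein of the basal body region, at 76.9 and 122, each with a log2 ratio of −0.66, or −0.24 relative to all genes. Cfap70 had 3.35 and 5.67, a ratio of −0.62, and Cfap69 had 21.4 and 31.4, a ratio of −0.53. Cfap44, at 0.32, stood with the higher genes, and Cfap74, Cfap20, Cfap298, Cfap410 and Cfap97 had ratios from −0.48 to −0.16. Cfap206, at 0.39, and Cfap157, at 0.37, were the neighbours of the upper threshold, and Cfap97 and Spag6l, both at −0.38, those of the lower.

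**Figure D2:**
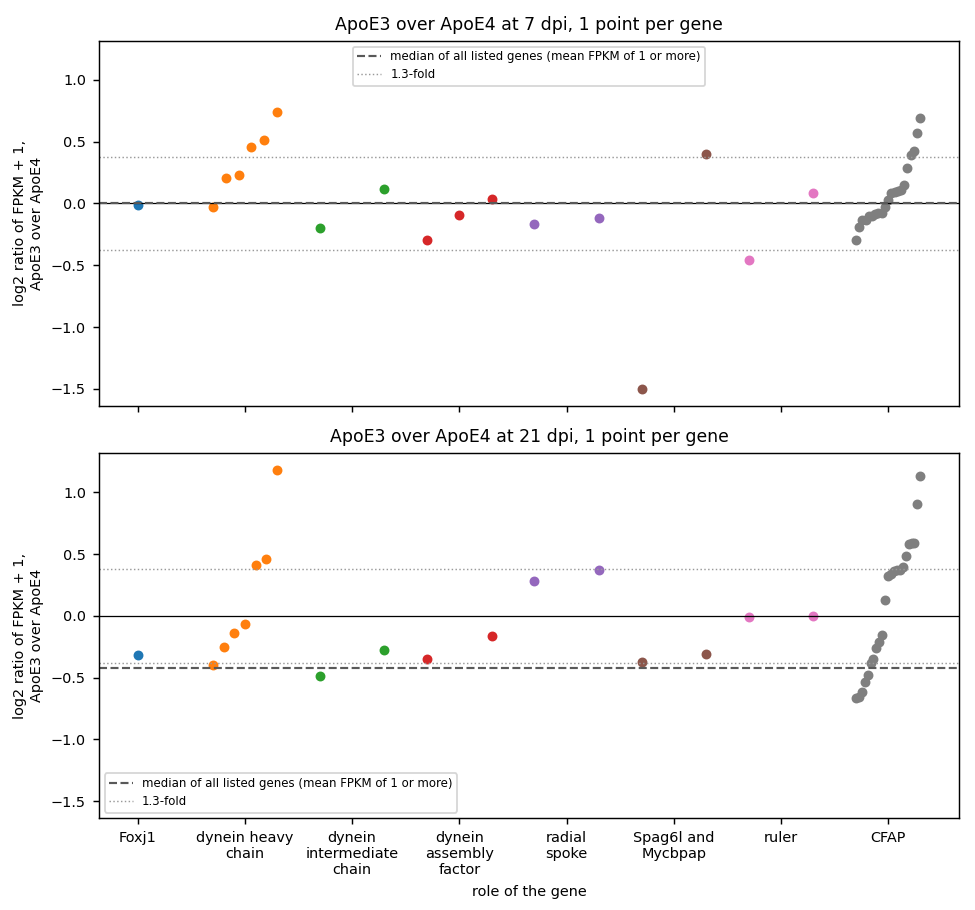
Log2 ratio of FPKM + 1, ApoE3 over ApoE4 (vertical axis), for each listed member by role (horizontal axis) at 7 dpi (upper panel) and 21 dpi (lower panel). The dashed line is the median of all listed genes with a mean FPKM of 1 or more, which is 0.00 at 7 dpi and −0.42 at 21 dpi, dotted lines mark 1.3-fold, and 35 of 41 points lie above the dashed line at 21 dpi.

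At 21 dpi the share of genes above 0 fell with abundance, among the members and among all genes. Of 18 members with a mean FPKM below 10, 13 were above 0 and 17 were above the median of all genes in that range, with medians of 0.37 for the members and −0.40 for all, of which 12.6% were above 0. Leaving out genes whose direction is set by the listing, 9 of 14 members in that range were above 0, with a median of 0.35, and 11.0% of all genes were, with a median of −0.39. From 10 to 50 FPKM, 5 of 16 members were above 0 and 14 were above the median of all genes in that range, with medians of −0.15 and −0.44, and 6.02% of all were above 0. At 50 FPKM and above, 0 of 7 members were above 0 and 4 were above the median of all, with medians of −0.32 and −0.42, and 2.27% of all were above 0. By length, the 9 members with a longest transcript of 6000 bases or more had a median log2 ratio of 0.32, against −0.45 for all genes of that length, and the 19 members below 3000 bases had −0.16, against −0.41.

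**Figure D3:**
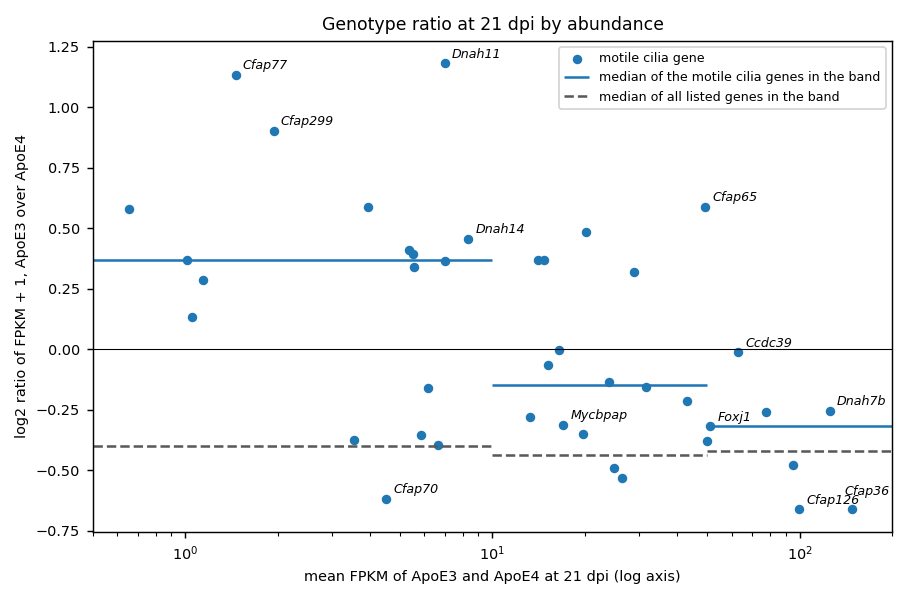
Log2 ratio of FPKM + 1, ApoE3 over ApoE4 at 21 dpi (vertical axis), against the mean FPKM of both groups (horizontal axis, logarithmic) for the 41 listed members. Solid lines are medians of the members below 10 FPKM, from 10 to 50 and from 50 up, at 0.37, −0.15 and −0.32, and dashed lines those of all listed genes in the same ranges, at −0.40, −0.44 and −0.42.

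Listing itself bears on the low members. No gene was listed at 21 dpi with a larger value below 0.95 FPKM, so a gene below that in 1 genotype could appear only by being higher in the other, and its direction is set by the listing. This held for Cfap73, Cfap77, Cfap157 and Rsph4a, all below it in ApoE4, and for 294 of all 11469 listed genes, of which 76 were higher in ApoE3 and 218 lower. Of the 6 members listed only at 21 dpi, Dnah11, Cfap77, Cfap299 and Cfap73 were higher in ApoE3 past 1.3-fold, and Cfap61 and Dnaaf4 were not past it, while 14.2% of all 593 genes listed only at that time were higher past it. Of the 35 members listed at both times, 6 were higher and 8 lower, against 1.35% and 58.9% of all 10876 such genes, and their median was −0.16.

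Of the 35 members listed at both times, 18 lay on opposite sides of 0 at 7 and at 21 dpi as deposited, 11 of them higher in ApoE3 at 7 dpi and lower at 21 dpi. Over all genes listed at both times, 52.2% lay on opposite sides, 49.0% in that order and 3.20% in the reverse order, which 7 members had. Higher in ApoE3 at both times were 6, and lower at both were 11. Relative to the median of all genes 3 members, Cfap36, Cfap70 and Dnaic1, were higher at 7 dpi and lower at 21 dpi, against 26.1% of all, and 15 were the reverse, against 25.6%, so which order was more frequent depends on the scaling. As deposited, a single member passed 1.3-fold in the same direction at both times, Dnah14, with log2 ratios of 0.52 and 0.46, beside 0.175% of all genes higher and 2.47% lower at both. Relative to the median Cfap43 and Cfap157 passed it as well, making 3 higher and 0 lower, though the direction of Cfap157 is set by the listing at both times, beside 0.515% and 0.809% of all. This difference between times was not tested.

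Markers of tissues outside the cord differed at 21 dpi by far more than the cilia genes. Of 10 Schwann cell markers, 9 were listed and 8 were higher in ApoE3, at a median of 1.29 and a summed FPKM of 3421 in ApoE3 and 1279 in ApoE4, led by Pmp22 at 1970 and 992. Of 10 sensory ganglion markers, 9 were listed with a median of 1.74, summed values of 810 and 839 led by Calca at 702 and 830, and Trpv1 and Mrgprd listed at 0 in ApoE4. Skeletal muscle markers went the other way, with 7 of 7 listed lower in ApoE3, a median of −4.27 and a sum of 28.0 and 696, led by Tnnt3 at 22.5 and 515, and Myh4 was listed at 0 in ApoE3. Liver markers, none of which was listed at 7 dpi, had a median of −2.74 over 7 genes and a sum of 10.5 and 125, led by Apoa2 at 5.38 and 59.2 and followed by Apoc3 at 3.03 and 29.2, with Cyp3a11 listed at 0 in ApoE3. The listing sets the direction of 2 of these Schwann cell, 5 sensory ganglion, 3 muscle and 4 liver genes. Without them 6 of 7 Schwann cell genes were higher in ApoE3, at a median of 0.99, and 3 of 4 sensory ganglion genes, at 1.396, whereas 4 of 4 muscle genes, at −4.37, and 3 of 3 liver genes, at −2.90, were lower. The part of these tissues in the values of the cilia genes was not tested.

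Cell types of the cord itself lay nearer to the table as a whole. At 21 dpi the median log2 ratio was −0.66 for 10 astrocyte markers, led by Gfap at 8201 and 15313 and Aldoc at 3014 and 4216, −0.54 for 9 oligodendrocyte markers, led by Mbp at 201348 and 278678, and −0.50 for 10 neuron markers. It was −0.93 for 6 markers of microglia and macrophages, −0.31 for 9 endothelial markers, led by Egfl7 at 197 and 205 and Flt1 at 106 and 138, and 0.01 for 9 fibroblast and pericyte markers, or −0.08 without Lum, whose direction the listing sets. The 9 listed ependymal markers had a median of −0.09, or 0.34 above all genes, with 7 of 9 above the median of the table, near the 0.36 of the cilia genes. Ccdc153, Tmem212 and Fam183b were higher in ApoE3, with log2 ratios of 0.83, 0.41 and 0.37, and Cd24a, Prom1 and Sox2 lower, with −0.56, −0.50 and −0.39. At 7 dpi the medians were 0.06 for astrocytes, 0.11 for oligodendrocytes, −0.04 for endothelium, −0.03 for Schwann cells, 0.23 for muscle, led by Pvalb at 98.3 and 86.4, or 0.18 without Tnnc2, whose direction the listing sets, 0.48 for 3 sensory ganglion genes, led by Calca at 377 and 269 and Prph at 106 and 94.1, or 0.33 without Isl1, whose direction the listing sets, and 0.03 for ependymal markers. For the choroid plexus the median was −0.57 over 3 genes listed at 21 dpi, of which the listing sets the direction of Ttr and Aqp1, and 0.15 over Folr1 and Aqp1 at 7 dpi.

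**Figure D4:**
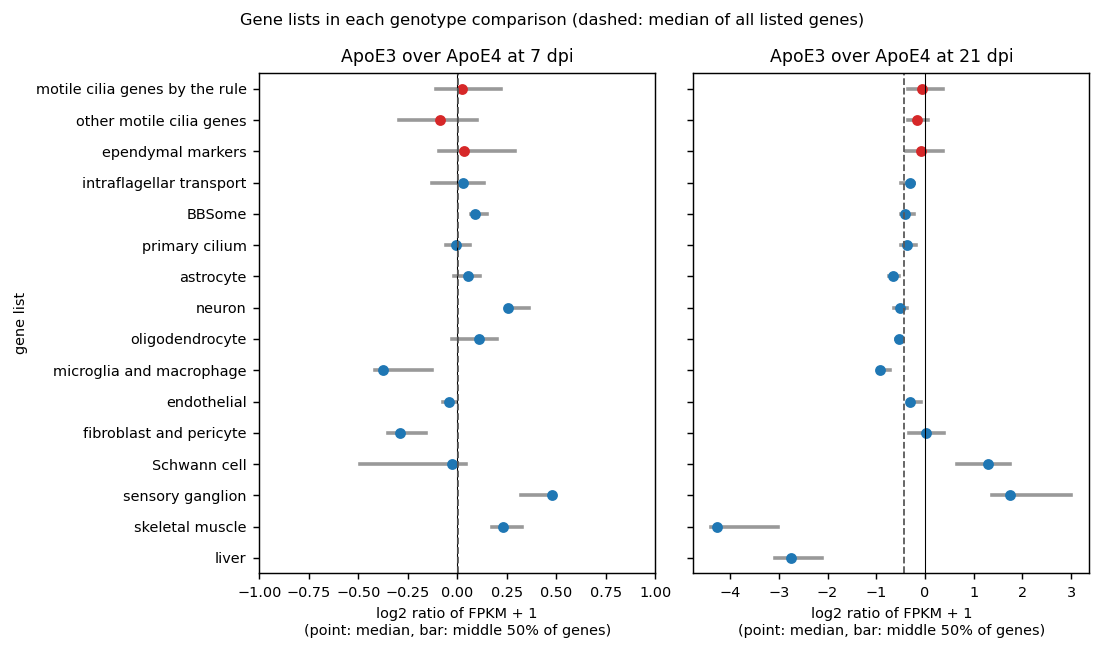
Median log2 ratio of FPKM + 1, ApoE3 over ApoE4 (points), with the middle 50% of genes (bars) for 16 gene lists (vertical axis) at 7 dpi (left) and 21 dpi (right, on a wider axis), where the dashed line is the median of all listed genes. At 21 dpi the cilia genes, at −0.07, and ependymal markers, at −0.09, lie right of the dashed line at −0.42, and skeletal muscle, at −4.27, and sensory ganglion, at 1.74, lie farthest apart.

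The third comparison asked how the genes changed from 7 to 21 dpi in ApoE3 mice. Most members were higher at 21 dpi: 30 of 35 were above 0 and 5 below, with a median log2 ratio of 0.48, beside 0.09 over all genes, of which 55.9% were above 0. Past 1.3-fold, 21 members were higher, against 31.3% of all 10876 genes, and 0 were lower, against 23.6% of all. The dynein motor Dnah14, Mycbpap, Cfap161, Cfap65 and Rsph1 had the 5 largest ratios. Both times stand in 1 table, but whether they were normalised together is not given in the sources used here, so levels were set side by side across it. With both groups at the same total FPKM the median of the members was 0.21 and 28 of 35 were above 0, while the share of all genes past 1.3-fold that were higher went from 57.1% to 48.9% with the median subtracted and to 32.8% with the same total.

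Markers of cell types moved over the same time in ApoE3, given here over genes listed at both times. Of 8 ependymal markers 6 were higher at 21 dpi, with a median log2 ratio of 0.81 and a summed FPKM of 342 at 7 dpi and 426 at 21 dpi, although Prom1, the most abundant, went from 208 to 183. All 10 neuron markers were higher, with a median of 0.69 and a sum of 5117 and 8337, led by Snap25, and so were 6 of 6 Schwann cell markers, with a median of 1.65 and a sum of 886 and 3398, led by Pmp22. All 6 markers of microglia and macrophages were lower, with a median of −1.28 and a sum of 6983 and 1283, led at 7 dpi by Lyz2, which went from 4522 to 212, and at 21 dpi by C1qa. Of 8 fibroblast and pericyte markers 6 were lower, with a median of −0.92 and a sum of 677 and 286, led at 7 dpi by Col1a1, which went from 212 to 2.44. All 5 skeletal muscle markers were lower, with a median of −0.99 and a sum of 57.9 and 27.6, led by Tnnt3. Medians were −0.29 for astrocytes, 0.04 for oligodendrocytes, 0.13 for endothelium, 0.96 for 2 sensory ganglion genes and −0.08 for 2 choroid plexus genes. The part of these cell types in the change of the cilia genes was not tested.

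Dnah14 had an FPKM of 2.95 at 7 dpi and 9.82 at 21 dpi in ApoE3, a log2 ratio of 1.45. Dnah7b went from 57.6 to 114, a log2 ratio of 0.98, and Dnah2, Dnah9 and Dnah7a had ratios of 0.54, 0.39 and 0.30. Dnah1 had 6.79 and 6.24, a ratio of −0.11. Dnaic1 and Dnaic2 had ratios of 0.69 and 0.36, Dnaaf3 had 0.18, and the ruler genes Ccdc39 and Ccdc40 had 0.36 and 0.67. Rsph1 had 7.71 and 16.7, a ratio of 1.02, against 0.20 for Rsph4a. Mycbpap had a ratio of 1.29, which rests on its low value in ApoE3 at 7 dpi, and Foxj1 had 0.31.

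Of the CFAP genes, 16 of 19 were higher at 21 dpi in ApoE3, and their median log2 ratio was 0.53. Cfap161 had an FPKM of 2.22 and 6.32, a ratio of 1.18, and Cfap65 had 26.7 and 59.3, a ratio of 1.12. The 5 members below the median of all genes, all of them below 0 as well, were Cfap70 at −0.18, Cfap97 at −0.13, Cfap45 at −0.12, Dnah1 at −0.11 and Spag6l at −0.10. Dnah9, at 0.39, and Cfap46, at 0.38, were the neighbours of the threshold. By length of the longest transcript, members below 3000, from 3000 to 6000 and from 6000 bases had medians of 0.45, 0.49 and 0.46, whereas all genes had 0.33, −0.02 and −0.30. In ApoE4 the members had 0.62, 0.51 and 0.79, and all genes 0.72, 0.41 and 0.20, so there the members below 3000 bases lay below all genes of that length.

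The fourth comparison asked the same in ApoE4 mice, where the table as a whole was higher at 21 dpi. The members were higher with it: 29 of 35 were above 0 and their median log2 ratio was 0.62, beside 0.53 over all genes, of which 78.3% were above 0. Past 1.3-fold, 25 members were higher, against 59% of all genes, and 0 were lower, against 10.9% of all. Relative to the median of all genes the members divided into 19 above and 16 below, with a median of 0.09, and with both groups at the same total FPKM their median was −0.05. The share of all genes past 1.3-fold that were higher went from 84.4% to 47.8% and 35.4% under these scalings. The members past it went from 25 higher and 0 lower to 10 and 8 and to 10 and 9. Of all 10876 genes, 2844 were higher and 3111 lower past it with the median subtracted, and 2095 and 3817 with the same total.

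In ApoE4, 7 of 8 ependymal markers were higher at 21 dpi, with a median log2 ratio of 0.88, or 0.35 relative to all genes, and a summed FPKM of 300 at 7 dpi and 526 at 21 dpi. All 10 neuron markers were higher, with a median of 1.45 and a sum of 3983 and 12241, and 5 of 5 skeletal muscle markers were higher, with a median of 3.53 and a sum of 39.3 and 674, led by Tnnt3 at 26.5 and 515. Of 6 markers of microglia and macrophages 5 were lower, with a median of −0.65 and a sum of 9187 and 2443, and of 8 fibroblast and pericyte markers 7 were lower, with a median of −1.65 and a sum of 808 and 272. Medians were 0.43 for 6 Schwann cell markers, 0.38 for astrocytes, 0.82 for oligodendrocytes, 0.56 for endothelium, 1.04 for 2 sensory ganglion genes and −0.12 for 2 choroid plexus genes. Relative to all genes these 6 medians were, in the same order, −0.10, −0.14, 0.30, 0.03, 0.51 and −0.65. The part of these cell types was not tested here either.

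Dynein motors led the members in ApoE4, with a median log2 ratio of 1.28 over 6 heavy chains, 0.76 above all genes. Dnah14 had an FPKM of 1.76 at 7 dpi and 6.89 at 21 dpi, a log2 ratio of 1.52, and Dnah7b had 48.9 and 136, a ratio of 1.46. Dnah2 had 8.80 and 25.2, a ratio of 1.42, and Dnah7a had 2.92 and 7.70, a ratio of 1.15. Dnah9 had 0.42, below the median of all genes, and Dnah1 had 5.75 and 4.45, a ratio of −0.31. Cfap126 had 45.9 and 122, a ratio of 1.39, and Cfap410 had 43.9 and 111, a ratio of 1.32. Dnaic1 followed at 1.303 and Dnaic2 had 0.44. Foxj1 had 0.62, or 0.09 relative to all genes.

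The members that did not rise with the table in ApoE4 came from several roles. Cfap45, a protein inside the doublet, had an FPKM of 1.496 at 7 dpi and 0.96 at 21 dpi, a log2 ratio of −0.35, and Rsph4a had 1.22 and 0.93, a ratio of −0.20. Ccdc39 had 67.6 and 63.5, a ratio of −0.09, while its partner Ccdc40 had 9.32 and 16.4, a ratio of 0.76. Cfap46 and Cfap52 had ratios of −0.01 each. Mycbpap, at 17.6 and 18.9, had 0.10, Dnaaf3 had 0.05 and Rsph1 had 0.49, while Spag6l had 0.67. Cfap206, at 0.39, and Cfap97, at 0.34, were the neighbours of the threshold.

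Of the 35 members, 26 were higher at 21 dpi in both genotypes, beside 54.3% of all genes, and 18 were higher past 1.3-fold in both, beside 29.97% of all. Lower in both genotypes were Cfap45 and Dnah1. The summed FPKM of the 35 members as deposited was 662 in ApoE3 and 676 in ApoE4 at 7 dpi, and 1020 and 1223 at 21 dpi. Over all genes listed at both times the sums were 1.195e+06 and 1.199e+06 at 7 dpi, and 1.446e+06 and 1.953e+06 at 21 dpi. The sums of the members were not scaled to these totals. Cfap36 was the largest term of each sum of the members, followed at 21 dpi by Dnah7b and, in ApoE4, Cfap126.

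**Figure D5:**
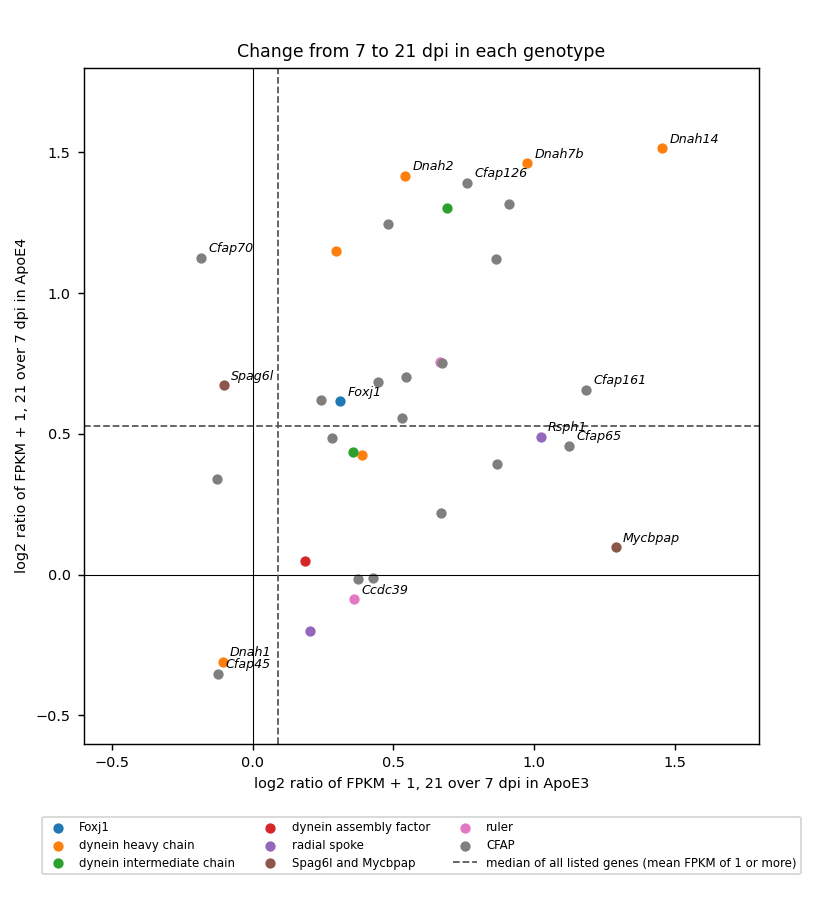
Log2 ratio of FPKM + 1, 21 over 7 dpi, in ApoE3 (horizontal axis) and in ApoE4 (vertical axis) for the 35 members listed at both times, coloured by role. Dashed lines are the medians of all listed genes with a mean FPKM of 1 or more, at 0.09 in ApoE3 and 0.53 in ApoE4, and 26 points lie above 0 on both axes as deposited, whereas with the same total FPKM the median in ApoE4 is −0.05.

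Motile cilia genes were also taken from 6 lists by role, with 42 of 61 symbols listed, none of them a member. Of the symbols not listed, Dyx1c1, Heatr2 and Pih1d3 are older names of Dnaaf4, Dnaaf5 and Dnaaf6, which the rule takes in. Dnaaf4 and Dnaaf5 are members. At 7 dpi their median log2 ratio was −0.09, with 15 of 39 above 0. Of these list genes, 3 were higher and 7 lower past 1.3-fold, against 3.78% and 4.76% of all listed genes. More members were higher than lower past it, 8 against 2. At 21 dpi the median of the list genes was −0.16, or 0.26 above all genes, with 31 of 38 above the median of the table. Here 2 list genes were higher and 8 lower past 1.3-fold, beside 10 and 8 of the members. The shares of all listed genes were 2.01% and 58.9%. From 7 to 21 dpi the median of the list genes was 0.59 in ApoE3, with 34 of 35 above 0. In ApoE4 it was 0.59, with 33 of 35 above 0, or 0.06 relative to all genes.

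By role, 12 listed genes of the radial spokes and central pair had a median log2 ratio of −0.20 at 7 dpi, led by Nme5, with an FPKM of 41.8 and 35.8 in ApoE3 and ApoE4 at 7 dpi and 74.4 and 92.4 at 21 dpi, and Lrrc23, with 22.5 and 32.1 and then 51.2 and 44.0. Tektins and other proteins inside the doublet had −0.16 at 7 dpi and −0.31 at 21 dpi, and 8 of 8 were higher at 21 than at 7 dpi in each genotype. Among them Nme7 had 15.3 and 21.1 and then 23.8 and 32.6, and Tekt1 had 6.66 and 6.28 and then 14.3 and 18.8. The nexin regulatory complex, which links neighbouring doublets, had medians of 0.03 and 0.05 in the genotype comparisons, with Gas8 at log2 ratios of −0.16 and −0.45 and Iqcg at −0.32 and 0.25. Docking and light chains of the dyneins had −0.09 and −0.32, with Ccdc114 at −0.12 and −0.36 and Dnal1 at 0.10 and −0.34. Other assembly genes had 0.01 and −0.06, with Ttc12 at −0.05 and −0.06 and Zmynd10 at −0.36 and 0.08.

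Regulators of multiciliation were mostly absent from the listing, with 3 of 10 listed. Rfx2 had an FPKM of 5.31 in ApoE3 and 5.50 in ApoE4 at 7 dpi and of 7.33 and 7.17 at 21 dpi. Rfx3 was listed only at 7 dpi, at 37.1 and 39.5, and Ccno, which acts in the amplification of centrioles, only at 21 dpi, at 0.61 and 1.48, a direction that the listing sets. Mcidas, Gmnc, Deup1 and Myb, which act when multiciliated cells form, had no listed value.

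Lists of genes that the immotile primary cilium of most cells also uses were nearer to all genes than the members in the genotype comparison at 21 dpi, but not in each of the others. At 21 dpi, 17 intraflagellar transport genes had a median log2 ratio of −0.31, or 0.12 above all genes, 6 BBSome genes had −0.40, or 0.02, and 12 primary cilium genes had −0.37, or 0.05, against 0.36 for the members. Kif3a, a motor of intraflagellar transport, had an FPKM of 123 in ApoE3 and 195 in ApoE4, and Ift81 had 141 and 150. Bbip1 had 159 and 257, Bbs2 had 112 and 128, and of the primary cilium genes Tulp3 had 57.8 and 59.8 and Adcy3 had 41.7 and 56.8. At 7 dpi these lists had medians of 0.03, 0.09 and −0.01. From 7 to 21 dpi their medians were 0.31, 0.06 and −0.14 in ApoE3, against 0.48 for the members, and 0.85, 0.74 and 0.06 in ApoE4, against 0.62. Relative to all genes those in ApoE4 were 0.33, 0.22 and −0.47, against 0.09 for the members.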

How the data were processed

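RNA-seq of the lesion segment was deposited by the authors as FPKM plus 1, with 1 value per gene and group. Per the submitters' processing notes they used STAR 2.5.4b, Bowtie2 2.1.10, SAMtools 0.1.7 and Cuffdiff 1.3.0, on libraries down-sampled to the same number of reads. The methods place the down-sampling before alignment and report a lower alignment rate for 1 replicate, whose group they do not name. The number of aligned reads may therefore differ between groups. The genome build and annotation are not given in the sources used here. The reads behind each gene are unknown, since the values were given per group as FPKM, so no counting error is given. The table also holds the authors' ratios, p-values and q-values of the genotype comparison, which were not used.

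The value of 1 was subtracted, symbols were matched to RefSeq, and 3 symbols that stood on 2 lines were left out. Log2 ratios had a pseudocount of 1, and 1.3-fold, the fold used in the study, served for counts. No test was run. The median of all genes was taken over genes with a mean FPKM of 1 or more. Members and the 21 gene lists were chosen with earlier results of these data known.

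The text names the members given by name, every dynein gene and assembly factor, the 10 most abundant CFAP genes, the 5 largest and 5 smallest ratios per comparison, members on the other side of the median of all genes where 5 or fewer, and the 2 most abundant genes of each list. Other genes were named after their values were seen. The values of some list genes are not reported here. Exon overlaps and transcript lengths came from GENCODE vM21 (43 of 45 members matched) and promoters from RefSeq for GRCm38.p6. Alternatives were a pseudocount of 0.1, a minimum mean FPKM of 1, subtraction of the median, the same total FPKM, a 2-fold threshold and 6 more lists, and, chosen after seeing the data, only members listed at both times, and members without those whose smaller value lies below the lowest larger value of any listed gene. Python 3.11.15 was used with numpy 2.4.6, pandas 2.3.3 and matplotlib 3.10.9, and the calculation was tested on simulated data.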

Additional observations from a re-analysis of the deposited data

Results flagged for a closer look

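The genotypes differed in opposite directions at the 2 times for Cfap70 and Dnah7a, each past 1.3-fold as deposited. Cfap70 had a log2 ratio of ApoE3 over ApoE4 of 0.69 at 7 dpi, from an FPKM of 3.93 and 2.06, and of −0.62 at 21 dpi, from 3.35 and 5.67. Dnah7a had 0.46 at 7 dpi, from 4.38 and 2.92, and −0.40 at 21 dpi, from 5.62 and 7.70. Relative to the median of all genes the ratios at 21 dpi were −0.19 for Cfap70 and 0.03 for Dnah7a, neither past 1.3-fold, and only Cfap70 still lay on opposite sides of the median at the 2 times. The difference between times was not tested, and Dnah7a shares sequence with close copies.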

How the results depend on the processing

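No paired analysis was possible because each group has 1 value per gene, which also prevented leaving out replicates. Of 80 values under alternatives, 43 kept their direction and lay within 1.5 times, and 37 did not. At 7 dpi the median log2 ratio of 0.03 became 0.0056 with a minimum mean FPKM of 1 and also without Cfap157, whose direction the listing sets, −0.036 with 6 more lists and −0.015 over members listed at both times. The 8 higher and 2 lower members became 0 and 1 at 2-fold, and 9 were lower with 6 more lists. At 21 dpi the median of −0.07 became −0.10 with the minimum, 0.36 with the median of all genes subtracted, 0.35 with the same total FPKM, −0.14 with 6 more lists, −0.16 over members listed at both times and −0.16 without the 4 members whose direction the listing sets. The 10 higher members became 16 with a pseudocount of 0.1, 20 with the median subtracted, 19 with the same total, 2 at 2-fold and 6 over members listed at both times. The 8 lower became 0 with the median subtracted, with the same total and at 2-fold, and 16 with 6 more lists. From 7 to 21 dpi in ApoE3 the median of 0.48 became 0.21 with the same total, the 21 higher became 5 at 2-fold and 48 with 6 more lists, and the 0 lower became 2 with the same total and 1 with 6 more lists. In ApoE4 the median of 0.62 became 0.090 with the median subtracted and −0.046 with the same total. The 25 higher became 10 with the median subtracted, with the same total and at 2-fold, and 46 with 6 more lists, and the 0 lower became 1 with a pseudocount of 0.1, 8 with the median subtracted, 9 with the same total and 1 with 6 more lists. Subtracting and rescaling move all genes by design, and more genes or a stricter fold change counts by construction, whereas the cause of the other changes was not tested. Depth per gene is unknown, so no error can be given for members of low FPKM.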
